A study of Homo sapiens with 6 samples.

Results

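Kinesins are the motor proteins that walk along microtubules, and the genes examined here are the protein-coding human genes whose symbol is KIF followed by a number. They were found by Ensembl identifier in the GENCODE annotation, and 39 genes of the 60676 in the expression tables met this rule. RNA had been sequenced from SK-N-BE, an established neuroblastoma line of human origin that takes on neuronal traits with retinoic acid, after 1.5 days in differentiation medium containing 10 μM retinoic acid. The 3 si-SCR libraries (the controls) came from cells given a scrambled small interfering RNA (siRNA), and the 3 si-CyCoNP libraries from cells given a pool of siRNAs against the long noncoding RNA CyCoNP, the product of LINC02381. All libraries share the cell line, the retinoic acid and the transfection. The cells are 1 established line, and the sources used here do not say that the replicates were separate cultures, so that p-values measure the spread between these libraries, which may be technical.

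A kinesin couples the splitting of ATP in its motor domain to steps along a microtubule. In neurons, where most axonal microtubules point their growing ends away from the cell body, kinesins carry vesicles, mitochondria and RNA granules outwards, while cytoplasmic dynein carries cargo back. In dividing cells other members of the family build the spindle, move chromosomes and complete cytokinesis. A differentiating neuroblastoma culture holds dividing cells and cells that extend neurites, and it can therefore express members of either kind. The 39 genes were accordingly placed by their known roles into 13 mitotic kinesins, 15 transport kinesins, 6 kinesins of the cilium and centriole, and 5 others.

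The libraries held between 3762009 and 4799407 counted fragments. LINC02381 had 274, 208 and 315 counts in the controls and 20, 30 and 12 counts after depletion, a log2 change of -3.78 (edgeR quasi-likelihood test, adjusted p = 6.84e-14), so the labels were borne out by the targeted gene. All 9 markers of noradrenergic neuroblastoma and neurons were detected and tested, and 5 of them, CHGA, HAND2, STMN2, DBH and GATA3, were lower in si-CyCoNP, with none higher (14.2% of all genes tested in each direction, at an adjusted p under 0.05). Their summed level was 1486 to 1749 FPKM in the controls and 1060 to 1112 FPKM after depletion. Of 5 fibroblast markers 4 reached the level needed for a test, and the collagens COL1A1 and COL3A1 were higher in si-CyCoNP while DCN was lower. The Schwann cell factor SOX10, the keratins KRT5 and KRT14 and the macrophage gene LYZ had 0 counts in every library. The summed level of the 5 fibroblast markers was 5.34 to 9.43 FPKM in the controls and 7.99 to 9.85 FPKM after depletion. The part of these markers in the kinesin results was not tested.

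Of the 39 kinesin genes, 29 had a mean of at least 1 FPKM (fragments per kilobase of gene per 1000000 counted fragments) in either group and were tested. KIF21A, a kinesin-4 motor that restrains microtubule growth at the cell cortex, was the most abundant. Its level was 157, 147 and 127 FPKM in the si-SCR libraries. KIF26A, an atypical kinesin without the usual ATPase activity, followed with 88.9, 83.4 and 91.5 FPKM. KIF5B, the widely expressed heavy chain of kinesin-1, came next with 69.0, 72.2 and 72.4 FPKM. The 3 genes did not overlap one another in si-SCR, and they kept ranks 1, 2 and 3 in si-CyCoNP. Far below them came the mitotic kinesins KIF22 and KIF11, at 26.1 ± 3.18 and 22.4 ± 2.89 FPKM (SD, n = 3), whose libraries overlapped. By mean level KIF5C moved from rank 11 to rank 19 of the kinesins after depletion and KIF1A from 10 to 15, while KIF20B moved from rank 17 to rank 9. The tested gene with the lowest level in si-SCR was KIF27, a ciliary kinesin, at 1.52 ± 0.256 FPKM. FPKM divides by the length of all annotated exons, which the tables put at 16695 bases for KIF1A and 17720 for KIF1B but at 5866 bases for KIF5B, and the order of genes depends on these lengths.

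**Figure D1:**
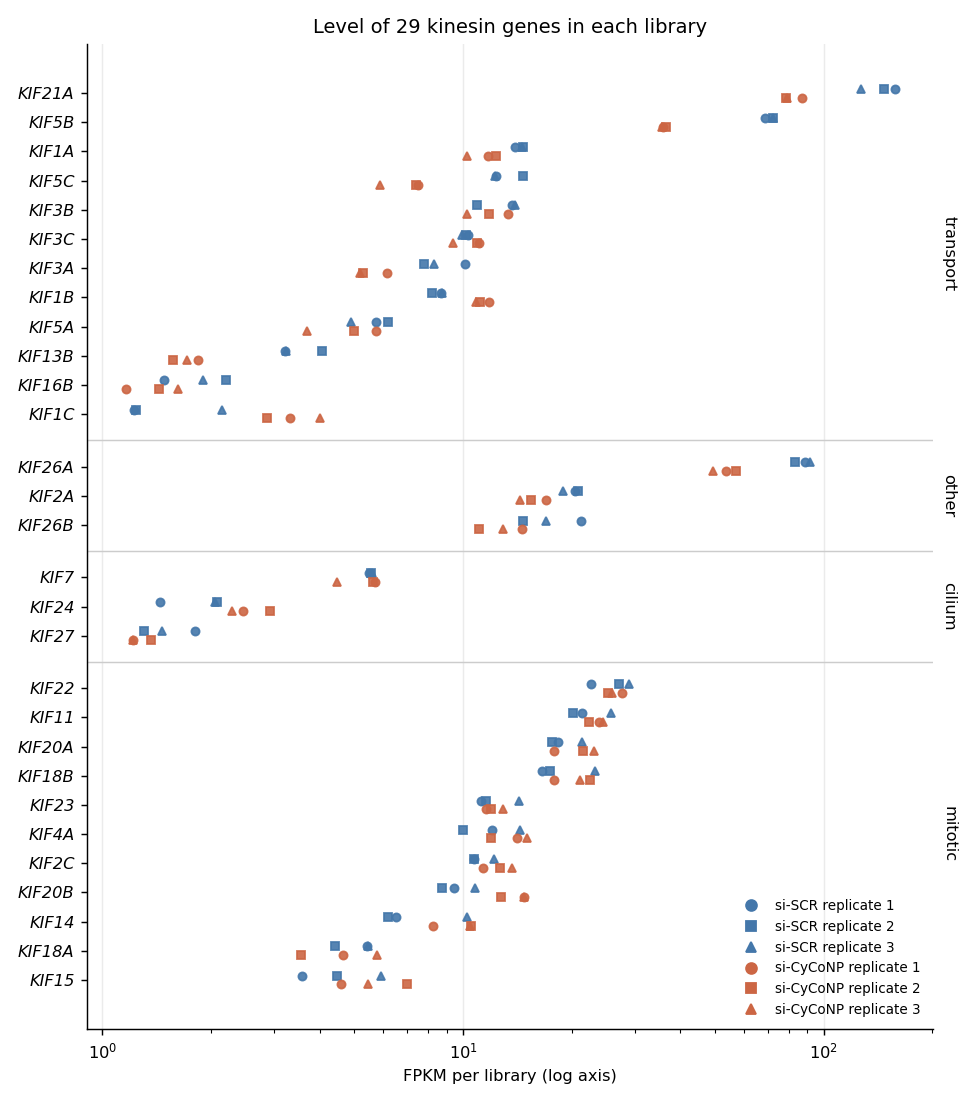
Level of each of the 29 tested kinesin genes in each library, in FPKM on a log axis, with si-SCR in blue and si-CyCoNP in red and 1 marker shape per replicate number. The si-CyCoNP points of KIF21A (78.9 to 87.4 FPKM), KIF5B (35.6 to 36.5 FPKM) and KIF26A (49.3 to 57.2 FPKM) lie to the left of all si-SCR points, whereas the points of most mitotic kinesins overlap.

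The remaining 10 genes stayed below the filter. KIF2B, a testis-rich depolymerase, and KIF12, KIF19 and KIF25 had 0 counts in all 6 libraries, which allows up to 0.625 to 0.797 CPM (counts per 1000000 fragments) in a library (3 counts, counting error only). KIF4B, a retrocopy of KIF4A that few fragments can map to uniquely, had 0, 0 and 0 counts in the controls and 0, 1 and 2 after depletion. The neuronal motors KIF17 and KIF21B had at most 3 and 6 counts in a library, and KIF6 at most 2. KIF13A, an endosomal motor, had 13, 15 and 23 counts in the controls and 25, 22 and 23 after depletion. KIF9, a motor of cilia and flagella, had 4, 1 and 3 counts in the controls and 12, 9 and 7 after depletion. Its groups did not overlap, but it did not pass when tested without a filter (edgeR, adjusted p = 0.0738). At this number of counted fragments no change could be shown for these genes.

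CyCoNP depletion moved the kinesins unevenly. At an adjusted p under 0.05, 9 of the 29 tested kinesins were lower and 3 were higher in si-CyCoNP (edgeR quasi-likelihood test with Benjamini-Hochberg adjustment over 13966 genes), where 14.2% of all genes tested were lower and 14.2% higher. With the further requirement of a log2 fold change below -1 or above 1, KIF5B and KIF13B were called lower and KIF1C higher, compared with 2.98% and 2.28% of all genes. The median log2 fold change was -0.14 over the 29 kinesins and 0.01 over all genes tested. In 9 kinesins every si-CyCoNP library lay below every si-SCR library on the FPKM scale, and in 4 every one lay above (16.1% and 24.2% of all genes). These are levels in bulk RNA, in which fewer cells of a type and less RNA per cell cannot be told apart.

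Of the 12 kinesins past the threshold 11 were among the 18 tested genes outside the mitotic class. Over all genes tested 14.2% were lower and 14.2% higher, with a median log2 fold change of 0.01. Among the 12 tested transport kinesins 6 were lower, 2 were higher and 4 did not pass, with a median log2 fold change of -0.43. Of the 3 tested genes placed among the others, KIF26A, KIF26B and KIF2A, all 3 were lower. None of the 3 tested ciliary kinesins passed. Of the 11 tested mitotic kinesins 1 was higher (14.2% of all genes), none was lower (14.2% of all genes) and 10 did not pass, with a median of 0.05. At an unadjusted p under 0.05 the mitotic class also had 1 gene. The difference between the classes was not tested. Levels summed over the 15 transport kinesins were 307, 300.0 and 280 FPKM in the controls and 198, 186 and 179 FPKM after depletion, 63.3% of the control mean. KIF21A made up much of this sum, with a mean of 143.8 of 295.7 FPKM in the controls. Without KIF21A the sums were 150, 153 and 153 FPKM against 110, 107 and 99.2 FPKM, 69.4% of the control mean. The sums over the 13 mitotic kinesins were 138, 138 and 172 FPKM against 156, 162 and 173 FPKM, and these overlapped.

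**Figure D2:**
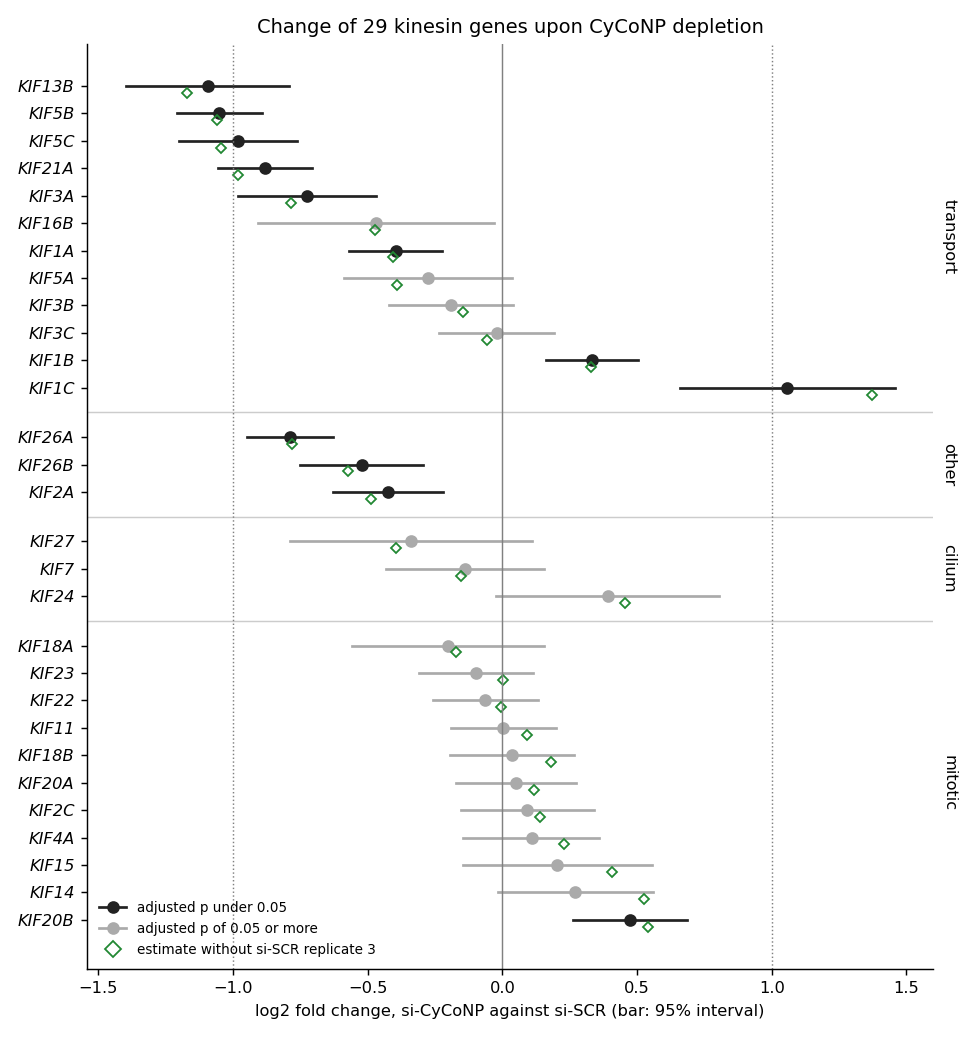
Log2 fold change of each tested kinesin in si-CyCoNP against si-SCR with its 95% interval, in black where the adjusted p was under 0.05 and grey otherwise, with the estimate without si-SCR replicate 3 as an open diamond. Dotted lines mark log2 fold changes of -1 and 1. The lowest estimates are those of KIF13B (-1.10), KIF5B (-1.05) and KIF5C (-0.98), and the highest is that of KIF1C (1.06).

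Kinesin-1, the main motor for outward transport, is a pair of heavy chains that carry the motor domain, usually joined by a pair of light chains that help to hold cargo. KIF5B had 1737, 1593 and 2030 counts in the controls and 1009, 910 and 865 after depletion. Its level of 35.8, 36.5 and 35.6 FPKM in si-CyCoNP lay far below the control range, and 48.3% of its library-normalised count remained. The estimate on the log2 scale was -1.05 ± 0.077 (SE; edgeR, adjusted p = 6.84e-11). KIF5B (ENSG00000170759) is on the minus strand of chromosome 10 from 32009015 to 32056425 (GRCh38).

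KIF5C, a heavy chain enriched in neurons, had 12.4, 14.7 and 12.3 FPKM in the controls and 7.49, 7.39 and 5.90 FPKM after depletion. Its gene (ENSG00000168280) spans 148875227 to 149026759 on chromosome 2. Its groups were separate, and the estimate on the log2 scale was -0.98 ± 0.107 (SE; edgeR, adjusted p = 5.76e-08). KIF5A, the neuron-restricted heavy chain, had 5.73, 6.20 and 4.88 FPKM against 5.73, 4.997 and 3.69 FPKM. These groups overlapped, and its log2 fold change of -0.28 did not pass (edgeR, adjusted p = 0.19, 95% interval from -0.59 to 0.04), although it did without si-SCR replicate 3 (-0.39, adjusted p = 0.0322).

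Taken as a pool, the 3 heavy chains summed to 89.9 ± 3.01 FPKM in the controls and 47.7 ± 2.21 FPKM after depletion (SD, n = 3). KIF5B made up 79.2% ± 1.63 of this pool in si-SCR and 75.5% ± 2.95 in si-CyCoNP. KIF5A made up 6.23% ± 0.679 and 10.0% ± 1.77. The ratio of KIF5B to KIF5A within a library was 12, 11.6 and 14.8 in the controls and 6.25, 7.31 and 9.65 after depletion. The control ratios were all higher, and the exact permutation test (two-sided) gave p = 0.1, its lowest possible value with 3 libraries against 3 (adjusted p = 0.144 over 13 ratios of related kinesins).

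The light chains did not follow the heavy chains. KLC1 was higher, with 2.58 ± 0.282 FPKM in the controls and 3.73 ± 0.211 FPKM after depletion (SD, n = 3) and a log2 change of 0.47 (edgeR, adjusted p = 0.0021). KLC2 and KLC4 had log2 fold changes of 0.12 and -0.11 and did not pass (edgeR, adjusted p = 0.411 and 0.782), and KLC3 had 0 counts. The 4 light chains together summed to 17.4 ± 0.888 FPKM in the controls and 20.3 ± 1.04 FPKM after depletion (SD, n = 3).

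**Figure D3:**
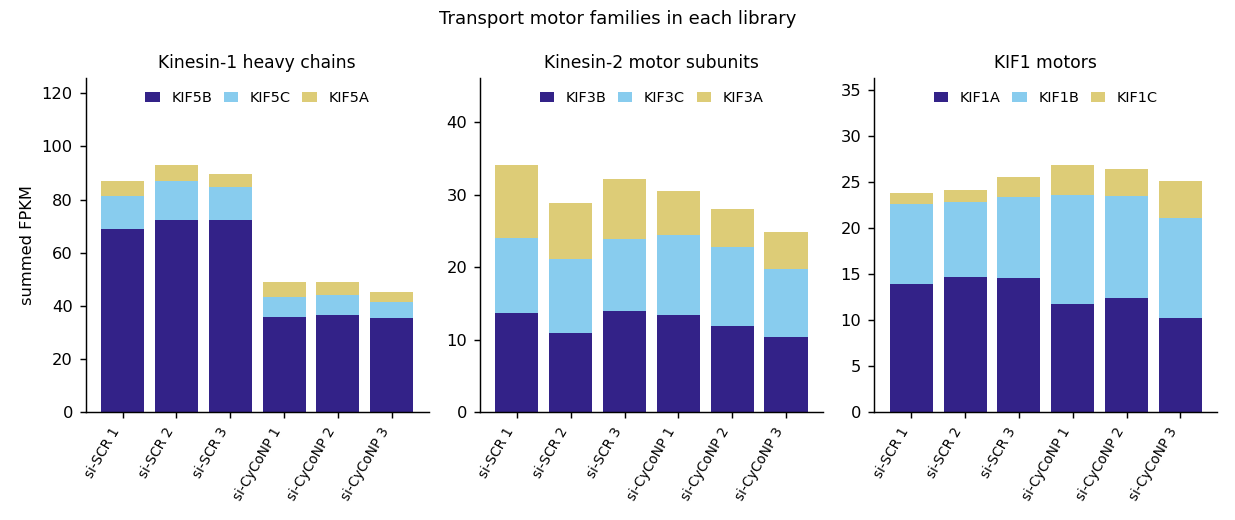
Stacked FPKM of the kinesin-1 heavy chains, the kinesin-2 motor subunits and the KIF1 motors in each library, each axis starting at 0. The kinesin-1 bars reach 87.1 to 93.0 FPKM in the controls and 45.2 to 49.1 FPKM after depletion, while the KIF1 bars stay between 23.9 and 26.9 FPKM with a changed makeup.

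Among the other transport kinesins, KIF21A had the largest loss in absolute level, from 157, 147 and 127 FPKM to 87.4, 78.9 and 79.3 FPKM. KIF21A (ENSG00000139116) is on the minus strand of chromosome 12 from 39293228 to 39443390. The groups were separate, with a log2 change of -0.88 ± 0.086 (SE; edgeR, adjusted p = 8.80e-09). KIF13B, a kinesin-3 motor that moves membrane vesicles and binds the scaffold protein DLG1, fell from 3.21, 4.07 and 3.24 FPKM to 1.84, 1.57 and 1.72 FPKM. Its log2 change was -1.10 ± 0.148 (SE; edgeR, adjusted p = 1.83e-06), and it rose to -0.97 without si-SCR replicate 2, the library with the highest level. KIF16B, a motor of early endosomes, had 1.48, 2.20 and 1.90 FPKM against 1.16, 1.43 and 1.62 FPKM and did not pass (log2 fold change -0.47, edgeR, adjusted p = 0.104), except without si-SCR replicate 1 (-0.60, adjusted p = 0.0482).

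Kinesin-2 pairs KIF3A with KIF3B or KIF3C for transport along axons and cilia. KIF3A had 10.1, 7.79 and 8.29 FPKM in the controls and 6.14, 5.28 and 5.17 FPKM after depletion. The groups did not overlap, and the estimate on the log2 scale was -0.73 ± 0.125 (SE; edgeR, adjusted p = 5.88e-05). Its partners did not pass, with log2 fold changes of -0.19 for KIF3B (95% interval from -0.42 to 0.04) and -0.02 for KIF3C (95% interval from -0.24 to 0.19; edgeR, adjusted p = 0.226 and 0.904). The ratio of KIF3A to KIF3B was 0.740, 0.714 and 0.593 in the controls and 0.461, 0.447 and 0.502 after depletion. Every control ratio was above every si-CyCoNP ratio (exact permutation p = 0.1, two-sided, adjusted p = 0.144). KIFAP3, the subunit that joins the motor pair to cargo, had a log2 fold change of -0.23 and did not pass (edgeR, adjusted p = 0.357).

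The KIF1 motors moved in opposite directions. KIF1A, which carries synaptic vesicle precursors and dense-core vesicles, fell from 14.0, 14.7 and 14.6 FPKM to 11.8, 12.4 and 10.3 FPKM (log2 fold change -0.40, edgeR, adjusted p = 0.000647). KIF1B, whose isoforms carry mitochondria and synaptic vesicle precursors, rose from 8.67, 8.21 and 8.77 FPKM to 11.8, 11.2 and 10.8 FPKM (log2 fold change 0.33, edgeR, adjusted p = 0.00305). Neither pair of groups overlapped. Within a library KIF1A exceeded KIF1B 1.61, 1.79 and 1.67 times in si-SCR, and the ratio was 0.996, 1.11 and 0.948 in si-CyCoNP (exact permutation p = 0.1, two-sided, adjusted p = 0.144).

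KIF1C, a broadly expressed KIF1 motor that carries dense-core vesicles and integrins, rose from 1.22, 1.24 and 2.15 FPKM to 3.30, 2.85 and 4.02 FPKM. It was covered by 45, 40 and 88 counts in the controls and by 136, 104 and 143 after depletion, and si-SCR replicate 3 thus lay nearer to the si-CyCoNP libraries than the other controls did. The estimate on the log2 scale was 1.06 ± 0.194 (SE; edgeR, adjusted p = 0.000125), and 1.37 without that library. It fell under 1 without si-SCR replicate 1 (0.92) or 2 (0.94) or without si-CyCoNP replicate 3 (0.91), still past an adjusted p of 0.05 in each. KIF1C overlaps the antisense gene KIF1C-AS1, as KIF5C, KIF3A, KIF13B and KIF2A overlap genes on the opposite strand, and reads of such a pair can be told apart only if they were counted by strand, which the sources used here do not state. The 3 KIF1 genes together summed to 24.5 ± 0.894 FPKM in the controls and 26.1 ± 0.899 FPKM after depletion (SD, n = 3), with KIF1A taking 58.9% ± 1.82 of the sum in si-SCR and 43.8% ± 2.98 in si-CyCoNP.

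KIF26A and KIF26B are atypical family members that bind microtubules without walking on them, and KIF26A is known for its part in the growth of enteric neurons and in neuronal migration. KIF26A fell from 88.9, 83.4 and 91.5 FPKM to 53.5, 57.2 and 49.3 FPKM, and its groups were separate. Its gene (ENSG00000066735) spans 104136454 to 104180894 on chromosome 14 (plus strand). The difference was a log2 change of -0.79 ± 0.078 (SE; edgeR, adjusted p = 1.31e-08). KIF26B had 21.2, 14.7 and 17.0 FPKM in the controls and 14.6, 11.1 and 12.9 FPKM after depletion. Its groups were separate by a narrow margin and its log2 fold change was -0.52 (edgeR, adjusted p = 0.000716), reduced to -0.35 without si-SCR replicate 1 and not past the threshold by limma on either log2 FPKM scale (adjusted p = 0.101 and 0.0983). KIF2A, which removes tubulin from microtubule ends in growing neurites and at the spindle, had 20.5, 20.8 and 18.9 FPKM against 17.0, 15.4 and 14.4 FPKM. It was lower by a log2 change of -0.42 (edgeR, adjusted p = 0.00173).

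The 3 tested kinesins of the cilium and centriole were low, and none passed. KIF7, a regulator of Hedgehog signalling, stood at 5.54 ± 0.0572 FPKM in the controls and 5.26 ± 0.687 FPKM after depletion (SD, n = 3). KIF24, a centriolar depolymerase, had 1.44, 2.08 and 2.05 FPKM against 2.45, 2.92 and 2.28 FPKM. The groups of KIF24 were separate, but its log2 fold change of 0.39 had a 95% interval from -0.02 to 0.81 (edgeR, adjusted p = 0.162). KIF27 had a log2 change of -0.34 (edgeR, adjusted p = 0.274).

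Mitotic kinesins were examined next, and their promoters show what the class shares in sequence. Many genes that peak in G2 and mitosis carry a CHR element (cell cycle genes homology region), where DREAM and B-MYB complexes bind, together with CCAAT boxes of NF-Y. Promoter windows of 300 bases, from 250 before to 50 after each RefSeq start site (GRCh38.p14), were given for 33 of the 39 kinesins and were searched on either strand for TTTGAA or TTCGAA, the common forms of the CHR, and for CCAAT. At least 1 window held a CHR form in 10 of 13 mitotic kinesins and in 1 of 12 transport kinesins with a window (KIF5B), in 1 of 4 ciliary kinesins (KIF24, which also held CCAAT) and in 0 of 4 others, against 19.5% of 27305 genes. CCAAT was found in 10 of the 13 mitotic, 4 of the 12 transport, 2 of the 4 ciliary and 1 of the 4 other kinesins, against 39.7% of all genes. Each motif is a match of letters and not a shown site. Mitotic kinesins without a CHR form in these windows were KIF2B, KIF2C and KIF20A. The matches nearest to a start site are shown for the 9 tested mitotic kinesins that held one and for KIF5B, on the strand that reads TTTGAA or TTCGAA, with the matched bases in capitals.
KIF20B, chr10:89701602-89701631, plus strand: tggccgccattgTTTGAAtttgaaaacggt
KIF14, chr1:200620733-200620762, plus strand: agaaggccgcaaTTTGAAtgggcgccccgc
KIF11, chr10:92593090-92593119, minus strand: tcggcgcctcaaTTTGAAaaagagacagag
KIF23, chr15:69414282-69414311, plus strand: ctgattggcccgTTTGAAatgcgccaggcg
KIF18B, chr17:44947754-44947783, minus strand: ccgcccggctaaTTTGAAcgcaaggcgccg
KIF4A, chrX:70290058-70290087, plus strand: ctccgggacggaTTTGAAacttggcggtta
KIF18A, chr11:28108149-28108178, minus strand: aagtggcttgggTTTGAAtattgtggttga
KIF15, chr3:44761747-44761776, minus strand: gatggccgcaaaTTTGAAtttggcgcttgg
KIF22, chr16:29790712-29790741, plus strand: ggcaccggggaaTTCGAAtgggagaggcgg
KIF5B, chr10:32056548-32056577, minus strand: agtgcagtaaaaTTTGAAtctgcgaccccg
In the mitotic kinesins shown the first matched base lay between positions -55 and 25 from a start site, whose first transcribed base is 1, and in KIF5B it lay at -140. KIF20B held 2 matches, of which the second follows the first directly and is left in lower case.

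KIF20B was the single mitotic kinesin past the threshold. This motor of the kinesin-6 family works in cytokinesis and is also known in developing neurons, and its gene (ENSG00000138182) spans 89701590 to 89774939 on chromosome 10 (plus strand). It rose from 9.45, 8.77 and 10.8 FPKM to 14.7, 12.7 and 14.8 FPKM. All si-CyCoNP libraries were higher, with a log2 change of 0.47 ± 0.103 (SE; edgeR, adjusted p = 0.000859). The related KIF20A, which brings the chromosomal passenger complex to the midzone, had 19.1 ± 1.94 FPKM in the controls and 20.8 ± 2.66 FPKM after depletion (SD, n = 3) and did not pass (log2 fold change 0.05, edgeR, adjusted p = 0.768). The ratio of KIF20B to KIF20A was 0.514, 0.496 and 0.505 in the controls and 0.822, 0.593 and 0.640 after depletion (exact permutation p = 0.1, two-sided, adjusted p = 0.144).

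The other 10 tested mitotic kinesins did not pass. KIF11, the tetramer that pushes spindle poles apart, had 21.4, 20.2 and 25.7 FPKM against 23.8, 22.4 and 24.5 FPKM, and its log2 fold change was 0.00 with a 95% interval from -0.19 to 0.20. KIF23, a subunit of the centralspindlin complex of cytokinesis, was at -0.10, KIF22, a chromokinesin, at -0.06 and KIF18A, which dampens chromosome movements, at -0.20 on the log2 scale. KIF18B, KIF2C, KIF4A and KIF15 had log2 fold changes of 0.03, 0.09, 0.11 and 0.20. The signs of KIF11, KIF18B, KIF20A, KIF22, KIF23 and KIF4A turned under other settings or without 1 library. Leaving out 1 library moved KIF15 between 0.03 (without si-CyCoNP replicate 2) and 0.41 (without si-SCR replicate 3), and KIF18A to -0.39 when replicate 3 of si-CyCoNP was left out and to -0.04 when replicate 2 was. The 95% intervals of these 10 genes ran from -0.56 at the lowest to 0.56 at the highest, so that a log2 fold change of 1 in either direction lay outside every one of them.

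KIF14, which acts with the kinase CIT in cytokinesis, had levels of 6.51, 6.20 and 10.3 FPKM in the controls and 8.26, 10.6 and 10.5 FPKM after depletion. The log2 fold change of 0.27 did not pass (edgeR, adjusted p = 0.16). Without si-SCR replicate 3, the control with the highest level, it was 0.52 and passed (edgeR, adjusted p = 0.000196). With all 6 libraries and the replicate number as a block it was 0.29 and also passed (edgeR, adjusted p = 0.0189).

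This library stood apart in the mitotic class as a whole. Of the 11 tested mitotic kinesins 10 had their highest si-SCR level (log2 CPM after TMM normalisation) in replicate 3, and so did 21 of 23 further mitosis genes and 15 of 15 S phase genes, compared with 34.6% of all genes. The median mitotic kinesin was at -0.04, -0.10 and 0.17 on the log2 scale relative to the si-SCR mean in the 3 si-SCR libraries, and at -0.05, 0.09 and 0.19 in the si-CyCoNP libraries. The further mitosis genes were at -0.07, -0.10 and 0.17 in si-SCR and at 0.00, 0.00 and 0.13 in si-CyCoNP. Values of the mitotic class in the groups thus overlapped, and without si-SCR replicate 3 its median log2 fold change was 0.14 in place of 0.05, with KIF20B and KIF14 past the threshold. The median of the transport kinesins was -0.44 without this library and -0.43 with it. The median transport kinesin was at 0.01, 0.04 and -0.04 in si-SCR and at -0.46, -0.36 and -0.59 in si-CyCoNP, so the groups lay apart.

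**Figure D4:**
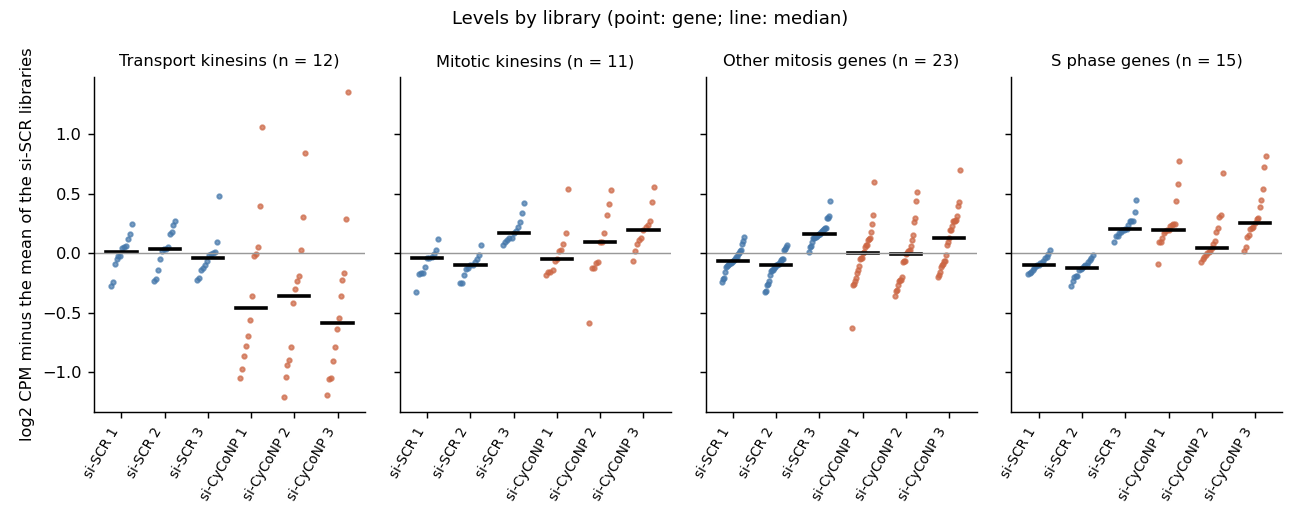
Levels of transport kinesins, mitotic kinesins, further mitosis genes and S phase genes in each library, as log2 CPM minus the mean of the si-SCR libraries, with 1 point per gene and a line at the median. Transport kinesins lie low in all 3 si-CyCoNP libraries (medians -0.46, -0.36 and -0.59), while the other sets are high in si-SCR replicate 3 (0.17, 0.17 and 0.20) relative to the other controls.

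Genes that work with or beside these motors were counted from lists of known members. Of 23 tested mitosis genes other than kinesins 2 were higher and none lower, with a median log2 fold change of 0.05, whereas 14.2% of all genes were higher and 14.2% lower. These were the survivin gene BIRC5 (0.57) and the checkpoint kinase gene BUB1B (0.31; edgeR, adjusted p = 0.000137 and 0.0149). Of 15 S phase genes 3 were higher and none lower beside the same shares of all genes, and 12 did not pass. The log2 fold changes of all 15 were above 0, from 0.003 to 0.73 with a median of 0.15, where 7065 of 13966 genes tested were above 0. By library the median S phase gene was at -0.1, -0.125 and 0.202 in si-SCR, relative to the si-SCR mean. In si-CyCoNP it was at 0.197, 0.046 and 0.256, so the groups overlapped. The 3 past the threshold were CDC45 (0.73) and GINS2 (0.54; edgeR, adjusted p = 0.000255 and 0.0036), both parts of the replicative helicase, and E2F1 (0.39, edgeR, adjusted p = 0.00625), a transcription factor of S phase genes.

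Outside the rule stand 5 kinesins named without a KIF number, of which 4 were tested. CENPE and KIFC1, which act in mitosis, had log2 fold changes of 0.18 and 0.05 and did not pass (edgeR, adjusted p = 0.194 and 0.736), and KIFC3 was at 0.04 (adjusted p = 0.878). KIFC2 lay below the filter, with 5, 6 and 13 counts in the controls and 2, 3 and 7 after depletion. STARD9, also known as KIF16A, was lower, with 2.56 ± 0.345 FPKM in the controls and 1.78 ± 0.145 FPKM after depletion (SD, n = 3) and a log2 change of -0.59 (edgeR, adjusted p = 0.000788).

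Among 20 tested kinesin adaptors and regulators 7 were lower and 2 higher (14.2% of all genes in each direction), with a median log2 fold change of -0.17. TRAK2, which links kinesin-1 to mitochondria, fell from 26.9 ± 5.91 to 13.3 ± 0.835 FPKM (SD, n = 3), a log2 change of -1.09 (edgeR, adjusted p = 7.65e-08). SPAG9, also named JIP4, fell by 0.84 on the log2 scale (edgeR, adjusted p = 8.84e-09). MAP7D1, a microtubule protein that recruits kinesin-1, was higher by 0.43 (edgeR, adjusted p = 0.000691). The related MAP7 was lower, with a log2 fold change of -0.79, and MAP7D3 did not pass at 0.08 (edgeR, adjusted p = 0.00155 and 0.699). Dynein and dynactin, the opposing machinery, had 8 genes lower and 4 higher of 26 tested, with a median of -0.20, where 14.2% of all genes were called in each direction. BICD2, an adaptor that activates dynein, was higher by 1.21 and the light chain DYNLL2 by 0.73 (edgeR, adjusted p = 9.37e-09 and 4.12e-07). DYNLT1 had a log2 fold change of -0.66 and DYNC1LI2 one of -0.43 (edgeR, adjusted p = 2.91e-05 and 0.000223).

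The study reported that CyCoNP interacts with the microRNA miR-4492, so matches to the miR-4492 seed were counted in the kinesins. For its own targets of miR-4492 the study combined the predictions of miRanda, PITA and TargetScan, and a seed match is a different measure. The mature sequence (RefSeq, GRCh38.p14, plus strand of chromosome 11 from 118910765 to 118910781) is shown with its seed, bases 2 to 8, in capitals.
hsa-miR-4492: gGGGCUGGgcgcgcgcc
The matching letters CCAGCCC were present in the 3'UTR of the MANE Select transcript in 3 of the 9 kinesins that were lower (KIF13B, KIF5C and KIF1A), in 2 of the 3 that were higher (KIF1B and KIF1C) and in 3 of the 17 that did not pass, against 23.4% of 10440 tested genes. The median 3'UTR was 3597 bases long in the lower, 4250 in the higher and 1149 in the other tested kinesins, compared with 1400 over all those genes. KIF5B, KIF21A and KIF26A held none.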

How the data were processed

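Raw counts were deposited by the authors for 6 libraries of rRNA-depleted, stranded total RNA. Per the labels and the methods of the study, reads were trimmed with Trimmomatic 0.39 and Cutadapt 3.2, cleared of rRNA with Bowtie2 2.4.2 and aligned with STAR 2.7.7a to GRCh38, and uniquely mapping fragments were counted per Ensembl gene, so that near-identical copies are undercounted. The strand setting of the counting is not given in the sources used here. The deposited FPKM values were made by the authors from the same fragments and are not corrected for library composition. Positions and 3'UTRs are from GENCODE for the same build. In it KIF2A and KIF1B each share exon bases with another gene on the same strand. The 39 kinesin identifiers all matched.

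The 13966 genes whose mean reached 1 FPKM in a group were tested in R 4.3.3 by edgeR 4.0.16 (quasi-likelihood) after TMM normalisation, with the Benjamini-Hochberg adjustment over all genes tested. Standard errors and 95% intervals were derived from the F statistic. The methods of the study name DESeq2, run here as an alternative (1.42.0), as was limma 3.58.1 on log2(FPKM + 1) and log2(FPKM + 0.1). A supplementary legend of the study names the likelihood ratio test of edgeR instead. The fits were tested on simulated data. Ratios within a library were compared by exact permutation. Promoters are from RefSeq. Genes named were all kinesins, LINC02381, KIFC1, KIFC2, KIFC3, CENPE, STARD9 and up to 4 genes with the smallest p-value of each other list. Light chains, KIFAP3, MAP7, MAP7D3 and markers were named beside them after their values were seen. Some genes of these lists are not reported here. The kinesins and lists were chosen with earlier results of these data known. PCR duplicates were not removed by molecular identifiers, and counting limits cover counting error only.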

Additional observations from a re-analysis of the deposited data

How the results depend on the processing

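Kinesin results were recomputed under 15 other settings: edgeR with library totals, with upper quartile scaling or with DESeq2 size factors, DESeq2 itself, no filter or the edgeR default, a replicate block, both log2 FPKM scales, and 6 fits without 1 library each. The 3 kinesins higher and 9 lower at an adjusted p under 0.05 stayed within 3 to 4 and 8 to 10 in number. Counts with a log2 fold change beyond 1 were less stable, and KIF5B, KIF5C, KIF13B and KIF1C lay near that limit. Above 1 there was 1 gene, and 0 on the log2(FPKM + 1) scale and 0 to 1 without a library. Below -1 there were 2 genes, 1 with library totals, 0 on the log2(FPKM + 1) and 0 on the log2(FPKM + 0.1) scale, and 1 to 3 without a library. The transport median of -0.43 was -0.273 without a filter (15 genes), -0.278 on the log2(FPKM + 1) scale and -0.337 over 8 core axonal motors (kinesin-1, kinesin-2, KIF1A and KIF1B), and -0.498 to -0.355 without a library. The mitotic median of 0.05 was -0.002 to 0.138 without a library and 0.043 with KIF2A counted as mitotic. The cause of these shifts was not tested.

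Signs turned in 7 kinesins, none past the threshold. Without a library KIF11 ran from -0.058 to 0.092, KIF18B from -0.048 to 0.182, KIF20A from -0.037 to 0.151, KIF23 from -0.155 to 0.002, KIF3C from -0.068 to 0.041 and KIF4A from -0.002 to 0.227. KIF11 was -0.002 with DESeq2 and with its size factors. KIF22 was 0.003 with library totals and 0.008 on both log2 FPKM scales, where KIF3C was 0.046, 0.037 and 0.04. LINC02381 ran from -4.16 to -2.90.

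With the replicate number as a block 4 kinesins were higher and 9 lower, the added one being KIF14 (0.29, adjusted p = 0.0189). Same-numbered libraries correlated in their deviations at r = 0.0907, 0.0727 and 0.108, and every library correlated best with its own number, but the labels give no shared batch, so the numbers were not taken to pair the libraries. The number of counted fragments limits the 10 kinesins below the filter, and no library batch is named in the labels.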
